A study of Mus musculus with 6 samples.

Results

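Myeloid cells carry families of surface receptors with a lectin or an immunoglobulin-like outer domain, and 50 genes of these families were read in cells sorted with an eosinophil gate from WT and Klf3-/- mice. The genes are those with a symbol starting Clec, Cd300, Siglec, Pira, Pirb, Lilr, Fcgr, Fcer1g, Trem, Treml or Sirp, with Trem2 left out. They are 50 of the 17097 genes on the array that had a probe set with a single gene symbol. Together they had 73 such probe sets, and each gene was read from its brightest one by the mean of the 6 arrays. Both groups were male FVB/NJ littermates from crosses of Klf3+/- mice, aged 12 weeks, untreated, fed standard chow and housed at 22 °C, with 3 WT mice and 3 mice with a global loss of Klf3. Klf3 encodes a transcriptional repressor, and because every tissue of these mice lacks it, an effect within the sorted cells and an effect of the surrounding body cannot be told apart. The gate took living cells of high side scatter that stained for CD45, CD11b, F4/80 and Siglec-F from the stromal vascular fraction (SVF) of inguinal subcutaneous adipose tissue (AT), and the RNA of each mouse was put on 1 Affymetrix HT MG-430PM array.

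Many of these receptors come in pairs with opposite signals. Activating members signal through an immunoreceptor tyrosine-based activation motif (ITAM), carried by the adaptors FcR gamma chain or DAP12 or by their own tail, which recruits the kinase Syk. Inhibitory members hold an immunoreceptor tyrosine-based inhibition motif (ITIM), which recruits the phosphatases SHP-1, SHP-2 and SHIP-1. By this textbook division 18 genes were classed as activating, 12 as inhibitory and 20 as other, the last group holding endocytic, adhesive and secreted lectins and ligands of other receptors. On the normalised log2 scale the 95th percentile of 44 olfactory receptor probe sets, whose genes serve smell and stand here for background, was 5.10, and 38 of the 50 genes had a mean above it. These were 16 activating, 9 inhibitory and 13 other genes.

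The check of the targeted gene and of the cell type bears on every result that follows. Klf3 had 6 probe sets, and every Klf3-/- array lay above every WT array on 5 of them and below on 1, with log2 differences from -1.01 to 2.83. The place of these probe sets relative to the altered stretch was not analysed here, so they check nothing about the labels, and Klf3-/- below stands for the arrays labelled so. Of 17 eosinophil markers 13 were measured and 6 of these lay below the olfactory receptor level, among them the defining genes Siglecf, Ccr3, Epx, Prg2 and Il5ra. All 15 macrophage markers lay above that level, and their summed linear intensity ranged from 21067 to 36614 in WT and from 26041 to 49517 in Klf3-/-. In bulk RNA of sorted cells, fewer cells of a type and less RNA per cell cannot be told apart.

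No receptor gene passed the adjusted threshold of 0.05 in the limma fit, and neither did any other gene on the array (0 of 17097, or 0%). The smallest adjusted p among the 50 was 0.663, for Pira1. At an unadjusted p under 0.05, 5 receptor genes (10%) were higher in Klf3-/-, against 3.61% of all genes, and 2 (4%) were lower, against 2.47%. At the same limit an analysis of variance per probe set gave 3 and 4. For 6 genes every Klf3-/- array exceeded every WT array (12%, against 4.84% of all genes), and for 4 every one lay below (8%, against 6.55%). Above the olfactory receptor level were 5 of the former and 1 of the latter, Clec2i, while Siglecf, Treml1 and Clec4f were below it. On the values as deposited 4 genes did not overlap and 0 were lower at an unadjusted p under 0.05. Arrays of the same replicate number varied together. With that number as a block, 8 genes (16%) were higher at an unadjusted p under 0.05, against 4.45% of all genes, and 7 (14%) were lower, against 3.5%, and none passed after adjustment. In all 3 replicate numbers 11 of the 50 genes were higher in Klf3-/- and 14 were lower. Over all genes the shares were 11.8% and 18.8%, both smaller than the share among the 50. The counts by p moved with single arrays. Without WT replicate 2, 7 genes were lower, and without Klf3-/- replicate 1, 5 were lower and 8 higher. With these arrays left out 19 and 21 genes did not overlap, but leaving out an array can only keep or raise that count. The share over all genes was not computed for these counts, nor for those on the deposited values or by analysis of variance. The count of lower genes was 0 without WT replicate 1, 0 with Klf3-/- replicate 3 left out and 1 with Klf3-/- replicate 2 left out.

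As a whole, neither class moved one way. Of the activating genes 9 were higher and 9 lower in mean, with a median log2 fold change of 0.01, and the inhibitory genes had 5 higher and 7 lower, with a median of -0.16. The other genes had 8 higher and 12 lower, with a median of -0.11. Over all 17097 genes the median was -0.04 and 44.8% were higher. On the values as deposited, where the arrays are not on a common scale, the median of all genes moved to 0.13, and those of the activating, inhibitory and other genes were 0.21, 0.057 and 0.084. The sign of the last pair of medians thus depends on the scaling. Klf3-/- replicate 3 held the highest value of 13 of the 38 genes above the olfactory receptor level, and Klf3-/- replicate 2 the lowest value of 16.

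**Figure D1:**
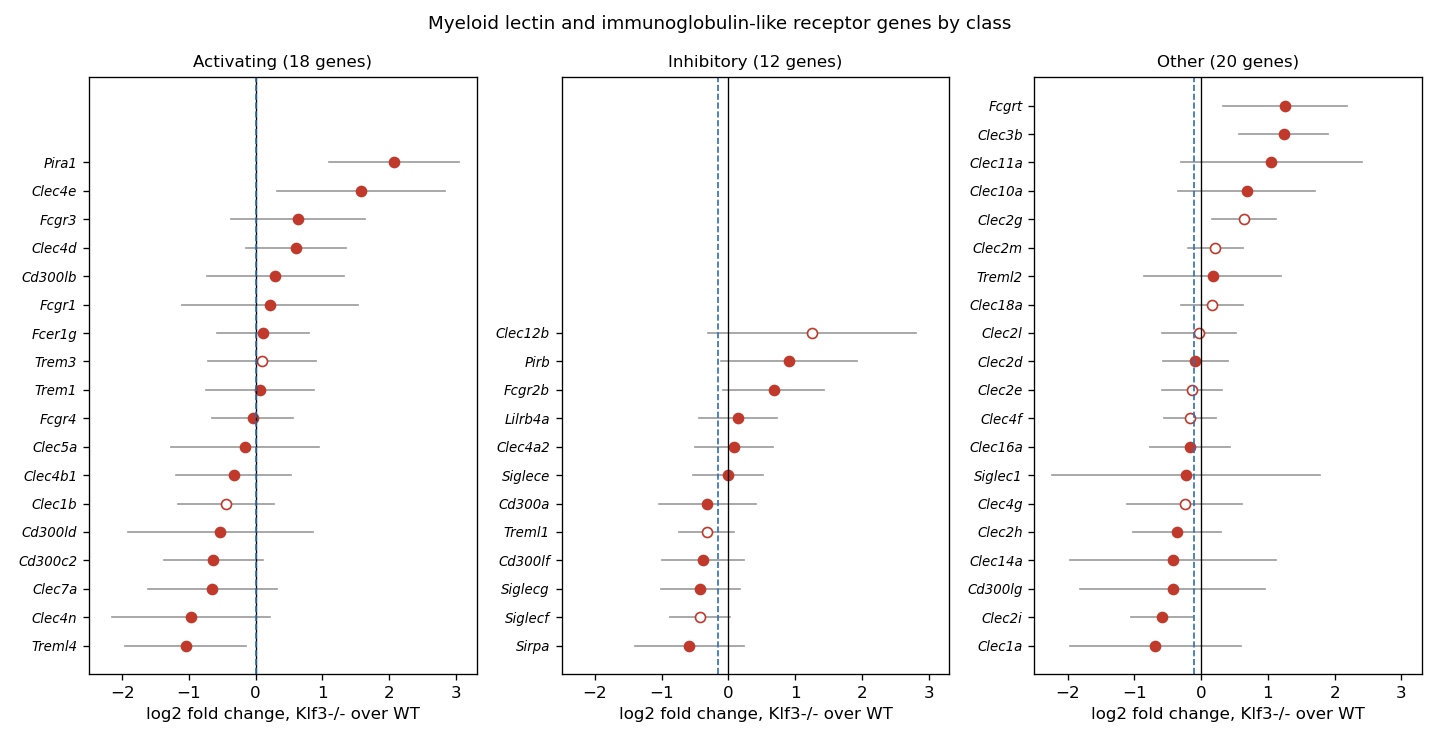
Log2 fold change of each receptor gene, Klf3-/- over WT, from the limma fit on quantile-normalised values (points) with its 95% interval (grey bars), in panels for the 18 activating, 12 inhibitory and 20 other genes. Filled points are the 38 genes above the olfactory receptor level, open points the rest, and the dashed line is the median of the class (0.01, -0.16 and -0.11). Pira1 at 2.07 lies farthest to the right, and the medians sit close to 0.

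The paired immunoglobulin-like receptors held the largest difference between the genotypes among the 50 genes when all 6 arrays were fitted. Pira1 encodes an activating PIR-A receptor that binds MHC class I molecules and signals through the FcR gamma chain. Its normalised log2 intensity was 6.35, 6.71 and 6.71 in WT replicates 1 to 3 and 7.94, 8.44 and 9.61 in Klf3-/- replicates 1 to 3. The genotypes did not overlap, also on the deposited scale, where WT read 70.4, 147 and 67.4 and Klf3-/- read 269, 542 and 581. The mean was 4.20-fold higher, a log2 fold change of 2.07 ± 0.41 (SE), with an adjusted p of 0.663 by limma. An exact two-sided permutation test gave p = 0.1, the smallest that 3 against 3 mice allow. PIR-A genes are near-identical copies, so the probe set may read several of them, and its value belongs to Pira1 only with that doubt.

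Pirb encodes the inhibitory partner, an ITIM receptor for the same ligands. It read 8.22, 8.10 and 8.57 in WT and 8.54, 8.84 and 10.23 in Klf3-/-, where 2 of 3 arrays exceeded the highest WT array. Its log2 fold change was 0.90 ± 0.43 (SE; adjusted p = 0.910 by limma), and 0.39 without Klf3-/- replicate 3. Within mice of the same replicate number the Klf3-/- array was higher by 0.32, 0.74 and 1.66. By limma the unadjusted p was 0.074, and 0.028 with the replicate block. The log2 difference of Pira1 from Pirb within an array was -1.87, -1.39 and -1.86 in WT and -0.60, -0.40 and -0.62 in Klf3-/-. These ranges did not overlap, so the activating reading differed more than the inhibitory one, by 1.17 log2 units. Lilrb4a encodes gp49B, a further ITIM receptor of this family, and had a log2 fold change of 0.15 with a 95% interval of -0.44 to 0.73. Its only probe set carries the _s_ suffix, and which transcripts it reads was not checked.

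The promoters of this pair are shown because their genes are neighbours on mouse chromosome 7 and both were higher in mean in Klf3-/-. That of Fcgrt is shown as a further gene higher in mean with the same motif. Clec11a (log2 fold change 1.05) meets that rule too, and Clec14a (-0.43) holds the motif but was lower, and neither is printed. The choice was made with these values known, so it ties no motif to a direction. None of these genes passed the adjusted threshold. RefSeq windows from 250 bases before to 50 after the gene start (GRCm38.p6) were found for 40 of the 50 genes. Capitals mark CCACACCC, a CACCC-box of the kind that KLF proteins bind. The windows lie at chr7:3739868-3740167 for Pira1, chr7:3720333-3720632 for Pirb and chr7:45103773-45104072 for Fcgrt, all on the minus strand, and are printed 5′ to 3′ along the gene.
Pira1: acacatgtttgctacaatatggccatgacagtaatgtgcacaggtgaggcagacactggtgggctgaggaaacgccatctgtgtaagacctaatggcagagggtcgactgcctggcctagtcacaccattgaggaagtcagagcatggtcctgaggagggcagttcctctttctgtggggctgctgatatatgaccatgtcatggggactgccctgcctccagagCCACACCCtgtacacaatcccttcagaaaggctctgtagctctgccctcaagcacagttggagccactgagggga
Pirb: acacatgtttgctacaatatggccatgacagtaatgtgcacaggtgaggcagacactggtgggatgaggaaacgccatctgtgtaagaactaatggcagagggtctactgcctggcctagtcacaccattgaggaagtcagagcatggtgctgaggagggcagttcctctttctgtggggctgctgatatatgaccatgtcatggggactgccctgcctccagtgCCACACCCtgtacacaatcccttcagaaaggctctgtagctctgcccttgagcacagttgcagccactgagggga
Fcgrt: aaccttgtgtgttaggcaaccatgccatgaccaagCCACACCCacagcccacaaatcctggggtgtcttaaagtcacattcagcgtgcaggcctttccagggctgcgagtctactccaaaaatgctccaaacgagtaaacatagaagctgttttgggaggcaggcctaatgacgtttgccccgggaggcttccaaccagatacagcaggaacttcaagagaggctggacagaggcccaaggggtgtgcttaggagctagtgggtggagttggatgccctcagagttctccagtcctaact

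The windows of Pira1 and Pirb were identical at 292 of 300 bases (97.3%), and in both the motif began 25 bases before the gene start. In the window of Fcgrt it began 215 bases before. Searched on both strands, CCACACCC was present in the windows of 5 of the 40 genes (12.5%), which were Pira1, Pirb, Fcgrt, Clec11a and Clec14a, and in 4.09% of the 27025 genes with a window. Since Pira1 and Pirb are near-identical here, these are not 5 separate cases. The log2 fold changes of these genes were 2.07, 0.90, 1.25, 1.05 and -0.43. CACACCC, which lies within CCACACCC, was in the same 5 windows (12.5%) and in 9.05% of all, whereas the looser CCNCNCCC, which CCACACCC matches, was in 27.5% of the receptor windows and in 51.9% of all. The shorter CACCC, which CCACACCC contains, was present in 65% of the receptor windows and in 59.8% of all. GAGGAA, a core that the myeloid factor PU.1 can bind, was present in 62.5% of the receptor windows and in 31.3% of all. The longer GAGGAAGT was in 12.5% and 3.69%, with Pira1 and Pirb among its genes. Of the other motifs searched, TGACTCA was in 7.5% and 5.95%. TTCCGGAA and TTGCGCAA were in 0% of the receptor windows, against 0.79% and 0.21% of all. A match in a window is a description of the sequence and not a measured binding site.

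**Figure D2:**
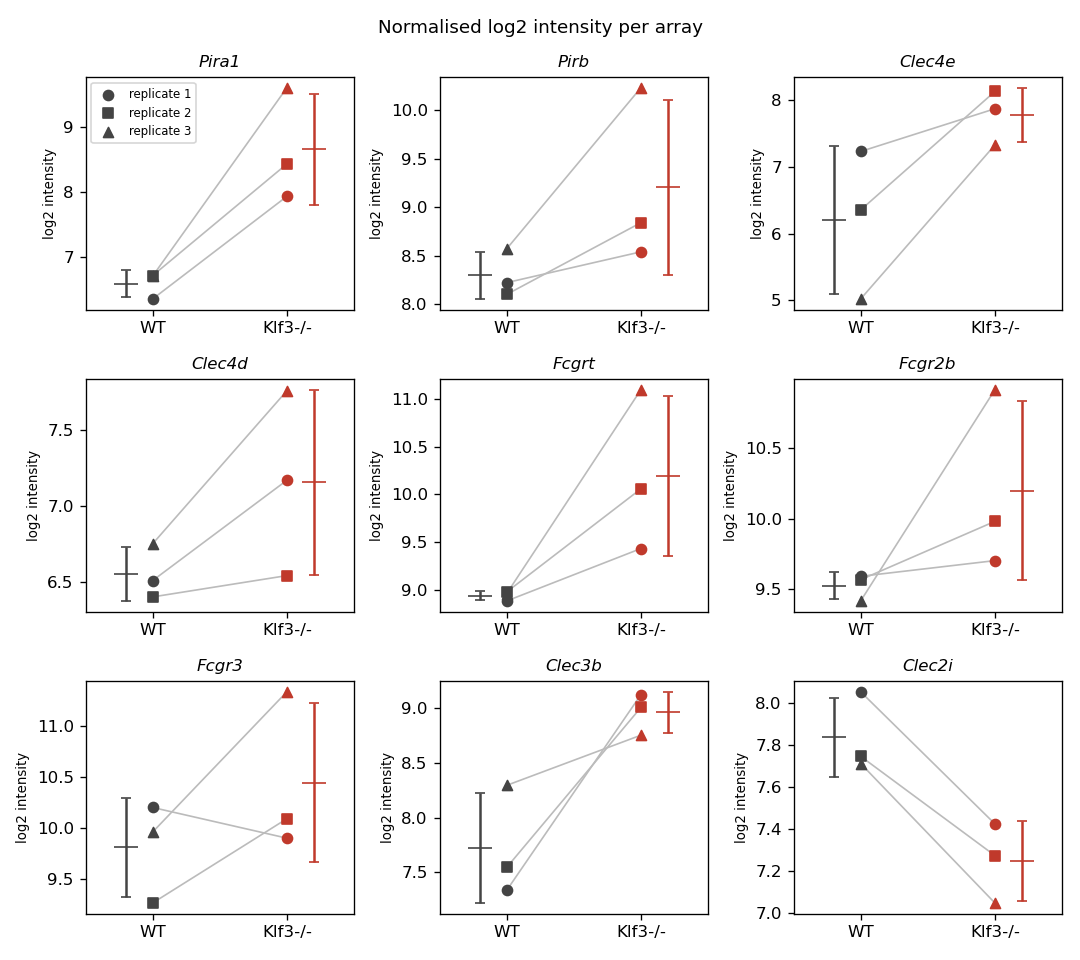
Normalised log2 intensity of 9 receptor genes on each of the 6 arrays, WT in black and Klf3-/- in red, with a symbol for each replicate number and grey lines joining arrays of the same number. The bars beside the points are the mean and SD of 3 mice, and each panel has its own range, which does not start at 0. In Pira1, Fcgrt and Clec3b all red points lie above all black points, while in Fcgr3 the line of replicate 1 runs downward.

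Receptors for IgG were higher in mean in Klf3-/-, except for Fcgr4, which was higher only on the values as deposited. Fcgr2b encodes the only inhibitory IgG receptor and Fcgr1, Fcgr3 and Fcgr4 the activating ones, which pair with the FcR gamma chain. Fcgr2b read 9.59, 9.56 and 9.41 in WT and 9.70, 9.98 and 10.92 in Klf3-/-. The genotypes did not overlap on this scale, but did on the deposited one. The log2 fold change was 0.68 ± 0.32 (SE; adjusted p = 0.910 by limma), and 0.32 without Klf3-/- replicate 3. Its 4 probe sets were all higher in mean, by 0.68 to 1.07, though on some of the dimmer ones the genotypes overlapped. Fcgr3 read 10.20, 9.26 and 9.96 in WT and 9.90, 10.09 and 11.33 in Klf3-/-, and the genotypes overlapped. On the deposited scale they did not, by little: WT read at most 1003 and Klf3-/- at least 1008. Its log2 fold change was 0.63 ± 0.43 (SE; adjusted p = 0.932), 0.19 without Klf3-/- replicate 3 and 0.36 without WT replicate 2. With the replicate block the unadjusted limma p was 0.082 for Fcgr2b and 0.130 for Fcgr3. The log2 difference of Fcgr3 from Fcgr2b within an array had a mean of 0.28 in WT (SD 0.51, n = 3) and 0.24 in Klf3-/- (SD 0.16, n = 3). With these probe sets no shift between the activating and the inhibitory receptor was detectable. The Fcgr2b one carries the _x_ suffix, and which transcripts it reads was not checked. The dimmer Fcgr2b probe sets gave log2 fold changes of 0.92, 0.76 and 1.07, and their difference from Fcgr3 was not computed.

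Fcgr1, the high-affinity receptor CD64, had a log2 fold change of 0.22 and a 95% interval of -1.10 to 1.54, and its second probe set above the olfactory receptor level had -0.04. Fcgr4 had -0.05 with an interval of -0.65 to 0.56. Fcer1g encodes the FcR gamma chain itself, on which these receptors and several lectins depend. It read 9.90, 9.49 and 9.88 in WT and 9.51, 9.62 and 10.45 in Klf3-/-, with a log2 fold change of 0.10 and an interval of -0.58 to 0.79. Fcgrt encodes the neonatal Fc receptor, which returns IgG and albumin from endosomes to the outside of the cell and has no activating or inhibitory motif. It read 8.89, 8.98 and 8.96 in WT and 9.43, 10.06 and 11.10 in Klf3-/-. The WT arrays lay close together and below every Klf3-/- array, whereas on the deposited scale the genotypes overlapped. The mean was 2.38-fold higher, a log2 fold change of 1.25 ± 0.40 (SE), with an adjusted p of 0.862 by limma. Without Klf3-/- replicate 3 the log2 fold change was 0.80.

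Lyve1 and Folr2, the macrophage markers with the largest rises in mean, followed the same arrays as these receptors. Lyve1, a hyaluronan receptor of tissue macrophages, read 7.98, 7.88 and 8.48 in WT and 8.67, 10.57 and 11.73 in Klf3-/-. Folr2, the folate receptor beta of such cells, read 8.95, 8.77 and 9.66 in WT and 9.57, 10.74 and 11.87 in Klf3-/-. Clec10a, a galactose-binding endocytic lectin of macrophages and dendritic cells, read 10.61, 10.44 and 10.92 in WT and 10.39, 11.42 and 12.20 in Klf3-/-, with a log2 fold change of 0.68 ± 0.44 (SE; adjusted p = 0.922) that was 0.25 without Klf3-/- replicate 3. With Klf3-/- replicate 1 left out it was 1.16, and the unadjusted limma p with the replicate block was 0.095. Klf3-/- replicate 3 was the highest array for all 3 genes, as it was for Pira1, Pirb, Fcgr2b, Fcgr3 and Fcgrt. Of the 15 macrophage markers 12 were higher in mean and 3 lower. The median over this list was only 0.14 log2 units, against 2.21 for Lyve1 and 1.60 for Folr2. Rises were small in Cd68 (0.03), Ctsb (0.03), Lgmn (0.05), Csf1r (0.11), C1qa (0.14), C1qb (0.14) and C1qc (0.21). They were larger in Mrc1 (0.75), Adgre1 (0.80) and Cd163 (1.29). The part of macrophages in the receptor values was not tested.

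The C-type lectins that sense microbial sugars and lipids went in both directions, although several are encoded side by side. Clec4n, Clec4d and Clec4e lie next to one another in that order on chromosome 6. Clec4e encodes Mincle, a receptor for glycolipids such as mycobacterial cord factor. It read 7.23, 6.35 and 5.02 in WT and 7.87, 8.12 and 7.32 in Klf3-/-. Every Klf3-/- array lay above every WT array, by little in the nearest pair, and the WT arrays were spread over more than 2 log2 units. The log2 fold change was 1.57 ± 0.53 (SE; adjusted p = 0.868 by limma), and 0.98 without WT replicate 3. A second, dimmer probe set below the olfactory receptor level gave 0.44. Clec4d, which encodes the Mincle partner MCL, read 6.51, 6.40 and 6.75 in WT and 7.17, 6.54 and 7.76 in Klf3-/-. Its log2 fold change was 0.60 ± 0.32 (SE; adjusted p = 0.910 by limma), and the differences within replicate numbers were 0.66, 0.14 and 1.01. The genotypes overlapped, though not on the deposited scale. By limma the unadjusted p was 0.098, and 0.048 with the replicate block.

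Clec4n, the neighbour of these genes, encodes Dectin-2, a receptor for fungal mannans that also pairs with the FcR gamma chain. It read 10.31, 8.99 and 10.25 in WT and 9.79, 8.20 and 8.64 in Klf3-/-. The genotypes overlapped, but within each replicate number the Klf3-/- array was lower, by differences of -0.52, -0.78 and -1.61. The log2 fold change was -0.97 ± 0.50 (SE; adjusted p = 0.910 by limma), and -0.63 without Klf3-/- replicate 2. By limma the unadjusted p was 0.094, and 0.014 with the replicate block. Both probe sets were lower in mean. Clec7a encodes Dectin-1, the receptor for fungal beta-glucan. It read 9.17, 7.83 and 8.76 in WT and 8.55, 7.55 and 7.71 in Klf3-/-. By limma the unadjusted p was 0.157, and 0.032 with the block. Its log2 fold change was -0.65 ± 0.41 (SE; adjusted p = 0.920 by limma), with differences of -0.62, -0.28 and -1.05 within replicate numbers. It was -0.36 without WT replicate 1 and -1.03 without WT replicate 2. Clec4a2 encodes DCIR1, an ITIM lectin of the same cluster, and had a log2 fold change of 0.08 with an interval of -0.50 to 0.66. Clec4b1 and Clec5a, both coupled to ITAM adaptors, had -0.33 and -0.16.

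**Figure D3:**
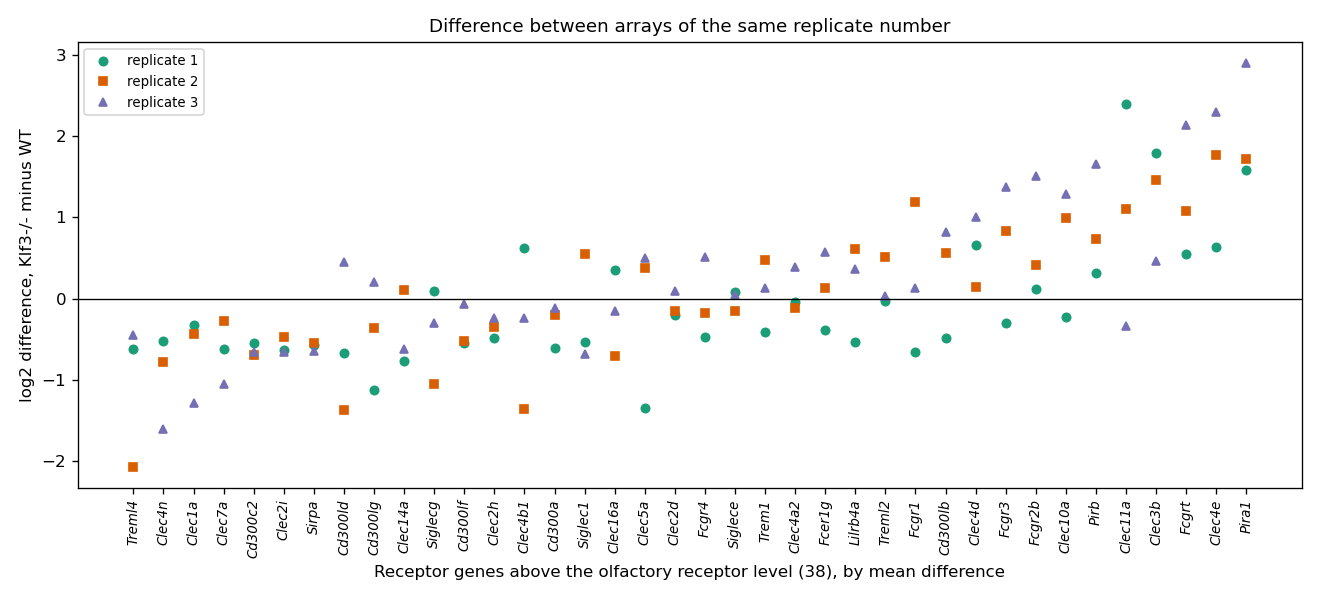
Log2 difference, Klf3-/- minus WT, between arrays of the same replicate number for the 38 receptor genes above the olfactory receptor level, ordered by the mean difference, with 1 symbol per replicate number. Over all genes 18.8% were lower and 11.8% higher in all 3 replicate numbers. At the left all 3 symbols lie below 0 for Treml4, Clec4n, Clec1a, Clec7a, Cd300c2, Clec2i and Sirpa. At the right all 3 lie above 0 for Pira1, Clec4e, Fcgrt, Clec3b and Pirb, with replicate 3 the highest in Pira1, Clec4e, Fcgrt and Pirb.

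The CD300 and SIRP receptors, which read lipids and CD47 on other cells, were mostly lower in mean. Of 6 Cd300 genes 5 were lower, with log2 fold changes from -0.63 to 0.30. Cd300c2 encodes CLM-4, an activating receptor coupled to the FcR gamma chain. It read 10.25, 9.46 and 10.03 in WT and 9.70, 8.76 and 9.37 in Klf3-/-. The genotypes overlapped, and the differences within replicate numbers were close to one another at -0.55, -0.70 and -0.65. Its log2 fold change was -0.63 ± 0.32 (SE; adjusted p = 0.910 by limma), and -0.38 without Klf3-/- replicate 2. By limma the unadjusted p was 0.084, and 0.015 with the replicate block. The inhibitory Cd300a, a receptor for phosphatidylserine on dying cells, had -0.31 and Cd300lf had -0.38. Both were lower in all 3 replicate numbers, as were 18.8% of all genes. With the block their unadjusted limma p was 0.174 and 0.117. The activating Cd300lb, coupled to DAP12, was the exception at 0.30.

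Sirpa encodes the ITIM receptor for CD47, through which a phagocyte is held back from engulfing a cell. It read 11.43, 10.51 and 11.39 in WT and 10.86, 9.96 and 10.74 in Klf3-/-. The genotypes overlapped because replicate 2 was low in both, while the differences within replicate numbers were -0.57, -0.54 and -0.65. By limma the unadjusted p was 0.135, and 0.020 with the block. The log2 fold change was -0.59 ± 0.35 (SE; adjusted p = 0.914 by limma), and the 3 probe sets gave -0.59 to -0.46. It was -0.31 without Klf3-/- replicate 2 and -0.89 without WT replicate 2. The macrophage markers Timd4 and Mertk, receptors for dying cells, had log2 fold changes of -0.84 and -0.80, and both were lower in all 3 replicate numbers. Their unadjusted limma p was 0.121 and 0.140, and 0.031 and 0.027 with the block. They are 2 of the 3 lower genes of that list, in which the other 12 were higher in mean and the median was 0.14. The part of this in the values of Sirpa, Cd300c2, Clec4n and Clec7a was not tested.

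The Siglecs, which bind sialic acid, were lower in mean in 4 of 4 genes, but in only 2 of 4 on the values as deposited. Siglecf, the gene of the sort marker, read 4.81, 4.42 and 4.51 in WT and 4.28, 4.11 and 4.07 in Klf3-/-. Every array was below the olfactory receptor level of 5.10, so no level can be given, although every Klf3-/- array read lower than every WT array (log2 fold change -0.42, adjusted p = 0.910 by limma). Siglec1, the macrophage adhesion receptor sialoadhesin, read 7.27, 7.53 and 9.95 in WT and 6.74, 8.07 and 9.26 in Klf3-/-. Its spread within a genotype exceeded the log2 fold change of -0.23 (interval -2.23 to 1.78), and its 3 probe sets gave -0.23, -0.09 and 0.12. Siglecg, an ITIM receptor best known from B cells, had -0.42 and Siglece -0.01.

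The TREM genes held a single large difference. Treml4 encodes a DAP12-coupled receptor that binds dying cells. It read 7.09, 7.70 and 6.33 in WT and 6.48, 5.62 and 5.88 in Klf3-/-. One Klf3-/- array lay above the lowest WT array, so the genotypes overlapped. The log2 fold change was -1.05 ± 0.39 (SE; adjusted p = 0.868 by limma), and -0.72 without WT replicate 2. Trem1, which amplifies inflammation through DAP12, had 0.06 with an interval of -0.75 to 0.88. Treml2 had 0.17 on 1 probe set and -0.10 on the other that lay above the level. Trem3 and Treml1 were below it, and Treml1, a platelet ITIM receptor, read lower in every Klf3-/- array than in every WT array (-0.33).

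Genes with neither motif included the secreted and ligand lectins. Clec3b encodes tetranectin, a secreted protein that binds plasminogen and is made by fibroblasts among other cells. It read 7.33, 7.54 and 8.29 in WT and 9.12, 9.01 and 8.75 in Klf3-/-. The genotypes did not overlap on either scale, with a log2 fold change of 1.24 ± 0.28 (SE; adjusted p = 0.736 by limma). The stromal markers were higher in mean in 10 of 10 genes, and their summed linear intensity was 10079 to 17321 in WT and 16393 to 26692 in Klf3-/-. The part of stromal RNA in the value of Clec3b was not tested. Clec11a, a secreted growth factor of bone stroma, had a log2 fold change of 1.05 with an interval of -0.30 to 2.41.

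The Clec2 genes encode ligands of natural killer cell receptors. Clec2d encodes Clr-b, which signals that a cell is healthy, and had -0.09 with an interval of -0.57 to 0.40. Clec2i encodes Clr-g and read 8.05, 7.75 and 7.71 in WT and 7.42, 7.27 and 7.05 in Klf3-/-. Every Klf3-/- array was below every WT array, with a log2 fold change of -0.59 ± 0.20 (SE; adjusted p = 0.868 by limma). A second probe set above the level gave 0.13, so the difference rests on the brighter one. Clec14a and Cd300lg, whose main places of expression are endothelium, had -0.43 and -0.43, with intervals that spanned 0. Clec1a had the lowest log2 fold change of the other genes, -0.68 with an interval of -1.97 to 0.60. By limma its unadjusted p was 0.250, and 0.043 with the replicate block. The genotypes overlapped, while on a second probe set, below the olfactory receptor level, they did not (-0.71). Clec12b, Clec18a, Clec1b, Clec2e, Clec2g, Clec2l, Clec2m, Clec4f and Clec4g lay below the olfactory receptor level, with log2 fold changes from -0.45 to 1.25. Among these Clec2g was higher (0.65) and Clec4f lower (-0.17) without overlap of the genotypes.

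Downstream of the receptors, a list of 29 adaptors, kinases and phosphatases, with CD47 added, had 25 measured genes. Of these 4 were higher and 21 lower in mean, with a median log2 fold change of -0.23. Over all genes 44.8% were higher and the median was -0.04. On the values as deposited 11 were higher and the median was -0.011, so the direction of the list rests on the scaling. None passed the adjusted threshold. At an unadjusted p under 0.05 the limma fit had 0 higher and 2 lower genes (8%, against 2.47% of all genes). With the replicate block it had 0 and 4 (16%, against 3.5%). For 5 genes (20%, against 6.55%) every Klf3-/- array lay below every WT array, and for 0 above. Src, a kinase that phosphorylates ITAM and ITIM motifs, read 8.36, 8.45 and 8.45 in WT and 7.85, 7.80 and 7.40 in Klf3-/- (log2 fold change -0.74, adjusted p = 0.817 by limma). Blnk, an adaptor of Syk signalling in B cells and macrophages, read 8.75, 8.64 and 8.67 in WT and 7.97, 8.12 and 8.16 in Klf3-/- (-0.60, adjusted p = 0.849 by limma). Tyrobp, which encodes DAP12, read 10.20, 10.17 and 9.76 in WT and 10.19, 9.56 and 10.39 in Klf3-/-, with a log2 fold change of 0.01. Syk itself had -0.15 and Ptpn6, which encodes SHP-1, had -0.38. Dendritic cell markers were lower in mean in 9 of 10 genes, 3 of them without overlap of the genotypes (30%, against 6.55% of all genes). Flt3, Zbtb46 and Xcr1 were among those that overlapped. The summed linear intensities of these markers were 22131 to 28759 in WT and 16650 to 21803 in Klf3-/-, which did not overlap. That sum rests mostly on H2-Aa, Cd74 and H2-Ab1, with mean log2 intensities of 13.18, 12.48 and 12.00. H2-Aa is also among the 3 genes without overlap, but on the deposited values its genotypes overlapped. It read the same 13.29 on all 3 WT arrays, because it held the same rank on each. The separation of the dendritic cell sums rests in part on H2-Aa. The monocyte and neutrophil sums did not overlap either, and were higher in Klf3-/-. Of that list 8 genes were higher and 3 lower in mean. Its largest rise was in Ltf, which read 5.58, 5.62 and 7.37 in WT and 8.89, 8.20 and 10.79 in Klf3-/-. The separation of these sums rests in part on Ltf. The part of dendritic cells in the values of the signalling list was not tested.

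**Figure D4:**
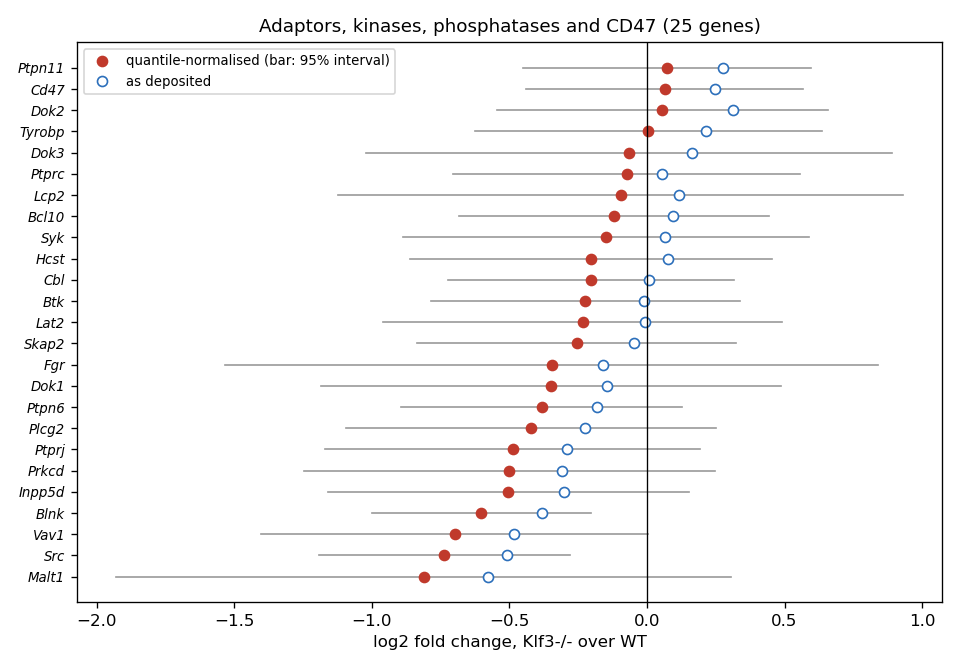
Log2 fold change, Klf3-/- over WT, of the 25 measured genes of adaptors, kinases, phosphatases and CD47, on quantile-normalised values (filled points, with 95% intervals) and as deposited (open points). On the normalised values 21 of 25 points lie left of 0, and on the deposited values 14 do.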

How the data were processed

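Per the labels and the study's methods, RNA was extracted with the Qiagen RNeasy Micro Kit, amplified (3′ IVT Pico Kit, Affymetrix) and hybridised, with 1 array per mouse. The table deposited by the authors holds linear intensities of 45037 probe sets in 6 columns, 1 for each mouse, made in Partek Genomics Suite, and a legend names RMA. Details of its steps were not given in the sources used here. Medians of 30.3 to 58.7 per array show that the deposited intensities were not quantile-normalised between arrays, so a scale effect can enter any value used as deposited. The number of arrays limits the precision.

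Log2 intensities were quantile-normalised and fitted with limma 3.58.1 in R 4.3.3 (lmFit and eBayes, genotype only), with Benjamini-Hochberg adjustment over all 45037 probe sets and a threshold of 0.05. The platform annotation gave 1 symbol to 28898 probe sets, several to 551 and none to 15588. All 50 receptor symbols were found in RefSeq (GRCm38.p6). Arrays that share a replicate number deviated together from the means of their genotypes (r = 0.17, 0.23 and 0.21 over probe sets), so the number was also fitted as a block. The labels call the mice litter-matched but tie no number to a litter. The other alternatives were the values as deposited, median centring, each array left out, trend and robust fitting, array weights, a filter on dim probe sets, other choices of probe set and a one-way analysis of variance per probe set. The methods name a two-way one without naming both factors. For single genes, exact two-sided permutation tests were run in scipy 1.17.1.

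The receptor genes, their classes and all lists were chosen with earlier results of these data known. Genes are named by this rule: an unadjusted p under 0.05 or no overlap of the genotypes above the background level, the 5 brightest of each class, all Pira, Pirb, Lilr and Fcgr genes, Fcer1g, Siglecf, genes whose probe sets disagree in direction, Tyrobp and signalling genes with an unadjusted p under 0.05. Other genes named in the text were chosen after their values were seen. The class of Clec2m was added after the files were read. Of the further marker lists, the summed linear intensity of monocyte and neutrophil markers was 1331 to 1985 in WT and 2466 to 3352 in Klf3-/-, that of endothelial markers 1096 to 5415 and 1165 to 4107, that of lymphoid markers 2948 to 5795 and 2142 to 5716, that of platelet and mast cell markers 1647 to 4808 and 2053 to 9582, and that of eosinophil markers 2518 to 3859 and 2411 to 2981.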

Additional observations from a re-analysis of the deposited data

How the results depend on the processing

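None of the 50 receptor genes passed the adjusted threshold under any alternative that was run. Of the 26 genes named by the rule, 17 kept their direction under every alternative. On the values as deposited, 0 receptor genes were lower at an unadjusted p under 0.05 and 4 did not overlap. The medians there were 0.057 for the inhibitory genes, 0.084 for the other genes and -0.011 for the signalling list, and Clec2d (0.12), Fcgr4 (0.17) and Siglec1 (0.016) changed sign. With the replicate block, 8 genes were higher and 7 lower, and it ended no call, since none had been made. Array weights gave 4 lower genes, a median of -0.14 for the activating genes, and -0.018 for Fcer1g, -0.022 for Lilrb4a, -0.10 for Treml2 and -0.036 for Tyrobp. With dim probe sets left out, 6 genes did not overlap. Without _x_ and _s_ probe sets the activating median was -0.046. The analysis of variance gave 3 higher and 4 lower genes. The cause of these shifts was not tested.

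With each array left out in turn, 4 to 8 genes were higher, 0 to 7 lower and 12 to 21 did not overlap. The last count can only stay or rise when an array is left out. The medians were -0.23 to 0.19 for the activating genes, -0.26 to -0.02 for the inhibitory genes, -0.18 to 0.028 for the other genes and -0.36 to -0.17 for the signalling list. The log2 fold changes that changed sign ran from -0.29 to 0.094 for Fcgr4, -0.17 to 0.050 for Clec2d, -0.14 to 0.26 for Clec4a2, -0.19 to 0.28 for Fcer1g, -0.25 to 0.67 for Fcgr1, -0.20 to 0.57 for Treml2, -0.85 to 0.62 for Siglec1 and -0.16 to 0.25 for Tyrobp.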

Other observations

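A pair of probe sets carried the symbols of both Sirpb1c and Sirpb1a, which encode near-identical DAP12-coupled SIRP beta receptors, and so belonged to no single gene. The brighter one read 8.12, 5.41 and 7.38 in WT and 7.99, 6.30 and 6.47 in Klf3-/-. The genotypes overlapped, with a log2 fold change of -0.05 and a 95% interval of -1.80 to 1.69. The dimmer one lay below the olfactory receptor level.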
